A study of Mus musculus with 6 samples.

Results

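The genes described here are 9 members of the pathway that carries growth signals from the surface of a T cell through lipid phosphorylation to the nucleus: the lipid phosphatase gene Inpp5d (SHIP1), the PI3K subunit genes Pik3cd and Pik3r1, the kinase genes Akt1 and Akt2, the transcription factor genes Foxo1 and Foxo3, and the sestrin genes Sesn1 and Sesn3. They were taken by name, as the probe sets that the platform annotation gives to a single one of these symbols, and all 9 were measured among the 12393 genes of the arrays. They had 23 probe sets in all, and the set with the highest mean over the 6 arrays stood for each gene. The study hybridised RNA of mouse CD4+CD25- T cells, which had been sorted, stimulated on plates coated with antibodies to CD3 and CD28, infected with a retrovirus and taken for RNA 5 days later. There were 3 groups of 2 arrays, each array a biological replicate per its title. WT-mock cells came from WT B6 mice and carried the empty vector. KO-mock cells carried the same empty vector and came from B6 mice of the genotype miR-17-92f/f CD4-cre+, in which Cre driven by the CD4 promoter removes the miR-17-92 microRNA cluster from T cells as they develop. KO-miR-17 cells had that genotype and a vector overexpressing miR-17. Cre was named only for the KO groups, so the deletion and the presence of Cre cannot be told apart here. Activation, retroviral infection and culture in 10% serum at 7% CO2 were shared by all 3 groups. No label says whether replicates came from separate mice, so p-values measure the spread between these arrays.

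PI3K phosphorylates a membrane lipid when the T cell receptor, CD28 or a cytokine receptor is engaged, and the product recruits and activates the Akt kinases. SHIP1, a phosphatase of blood cells, removes a phosphate from that product. Akt phosphorylates FOXO factors and so keeps them out of the nucleus. In resting lymphocytes FOXO1 maintains genes of survival, quiescence and homing, the IL-7 receptor gene among them. Sestrins are stress-induced proteins that restrain the growth kinase complex mTORC1, and sestrin genes are known as targets of FOXO factors and of p53.

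The sequences of the cluster's main mature microRNAs show which part of the deletion the miR-17 vector could return. They are from RefSeq (GRCm38.p6, chr14, + strand), printed 5′ to 3′ with the seed, bases 2 to 8, in capitals. The 6 microRNAs carry 4 different seeds.
miR-17-5p: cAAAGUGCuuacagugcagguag
miR-20a-5p: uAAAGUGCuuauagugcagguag
miR-18a-5p: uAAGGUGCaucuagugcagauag
miR-19a-3p: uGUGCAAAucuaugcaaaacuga
miR-19b-3p: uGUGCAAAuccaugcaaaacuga
miR-92a-3p: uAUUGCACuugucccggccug
The seed of miR-17-5p is also that of miR-20a-5p, and miR-18a-5p, the miR-19 pair and miR-92a-3p each have another. The miR-17 vector thus carries 1 of the 4 seeds of the deleted cluster, and these arrays did not measure the microRNAs themselves. Where these seeds match the transcripts of the 9 genes was not analysed here.

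Values are log2 intensities. The median probe set of an array read 5.71 to 5.76, and its lower quartile was 3.99 to 4.17, where background can set the reading. All 9 genes read above that quartile on every array. Differences are given as log2 ± SE from limma, a linear model fitted to all genes and all 6 arrays, with n = 2 arrays per group. A gene was called at a limma p under 0.05 after Benjamini-Hochberg adjustment over the 12393 genes. An exact permutation test of 2 arrays against 2 could not go below p = 0.333. T cell markers were bright, with 7 of 8 listed genes measured at means of 9.08 to 12.04. Their mean level was 10.71 to 10.75 on the WT-mock arrays, 10.37 to 10.50 on the KO-mock arrays and 10.34 to 10.45 on the KO-miR-17 arrays. Thy1 was the 1 of the 7 called, lower in each KO group than in WT-mock cells. In the 7 lists for other cell types 19 genes were measured and 0 were called in any of the 3 comparisons. Over all genes 6.54% were called in KO-mock against WT-mock, 0% in KO-miR-17 against KO-mock and 6.8% in KO-miR-17 against WT-mock. The mean level of such a list lay between 3.52 and 5.38 on every array, below the median probe set. Single genes of these lists read above that median on some arrays. Among them were Cd8b1 (6.21 on WT-mock replicate 2) and Csf1r (5.95 on WT-mock replicate 1). Ms4a1 read 6.26 on KO-mock replicate 1 and 5.15 on KO-mock replicate 2. The poly-A control transcripts spiked into the samples read lower in KO-mock than in WT-mock by a mean of -0.57, in 24 of 24 probe sets, and lower in KO-miR-17 than in WT-mock by a mean of -0.54; between the KO groups their mean difference was 0.03. The hybridization controls read lower in 18 of 18 probe sets in each comparison, by means of -0.17 for KO-mock against WT-mock, -0.12 for KO-miR-17 against KO-mock and -0.29 for KO-miR-17 against WT-mock. The part of the T cell markers and of these controls in the differences below was not tested. In such bulk samples fewer cells of a type and less RNA per cell cannot be told apart.

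The comparison of KO-mock with WT-mock cells asks what differs once the cluster is missing. Foxo1 and Inpp5d were lower in KO-mock cells, and the other 7 genes did not pass. Over all genes 6.54% were called in this comparison, 2.79% lower and 3.74% higher, against 2 lower and 0 higher of the 9. The median difference of the 9 was -0.21, beside -0.03 over all genes, and 8 of the 9 lay below 0. The share of all genes below 0 was not counted. Of the 8, Akt2, Pik3r1 and Pik3cd each read above 0 in 1 or more fits that left out 1 array. For 4 of the 9 (Inpp5d, Akt1, Foxo1 and Foxo3) the values of KO-mock and WT-mock were fully apart, as they were for 49.9% of all genes. The comparison of KO-miR-17 with KO-mock cells asks what differs after miR-17 is put back by itself. Limma called 0 of the 9 there and 0% of all genes; at an unadjusted limma p under 0.05 there were 1 of the 9, Sesn3, and 3.93% of all genes. Foxo3 and Sesn3 were fully apart there, 2 of 9 beside 28.9% of all genes. In KO-miR-17 against WT-mock cells 3 of the 9 were called lower, Inpp5d, Foxo1 and Sesn3, and 0 higher, where 6.8% of all genes were called, 2.77% lower and 4.03% higher. In that comparison 5 of the 9 were fully apart, beside 50.4% of all genes. Each pair of these comparisons shares a group of arrays, so they are not independent of each other.

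**Figure D1:**
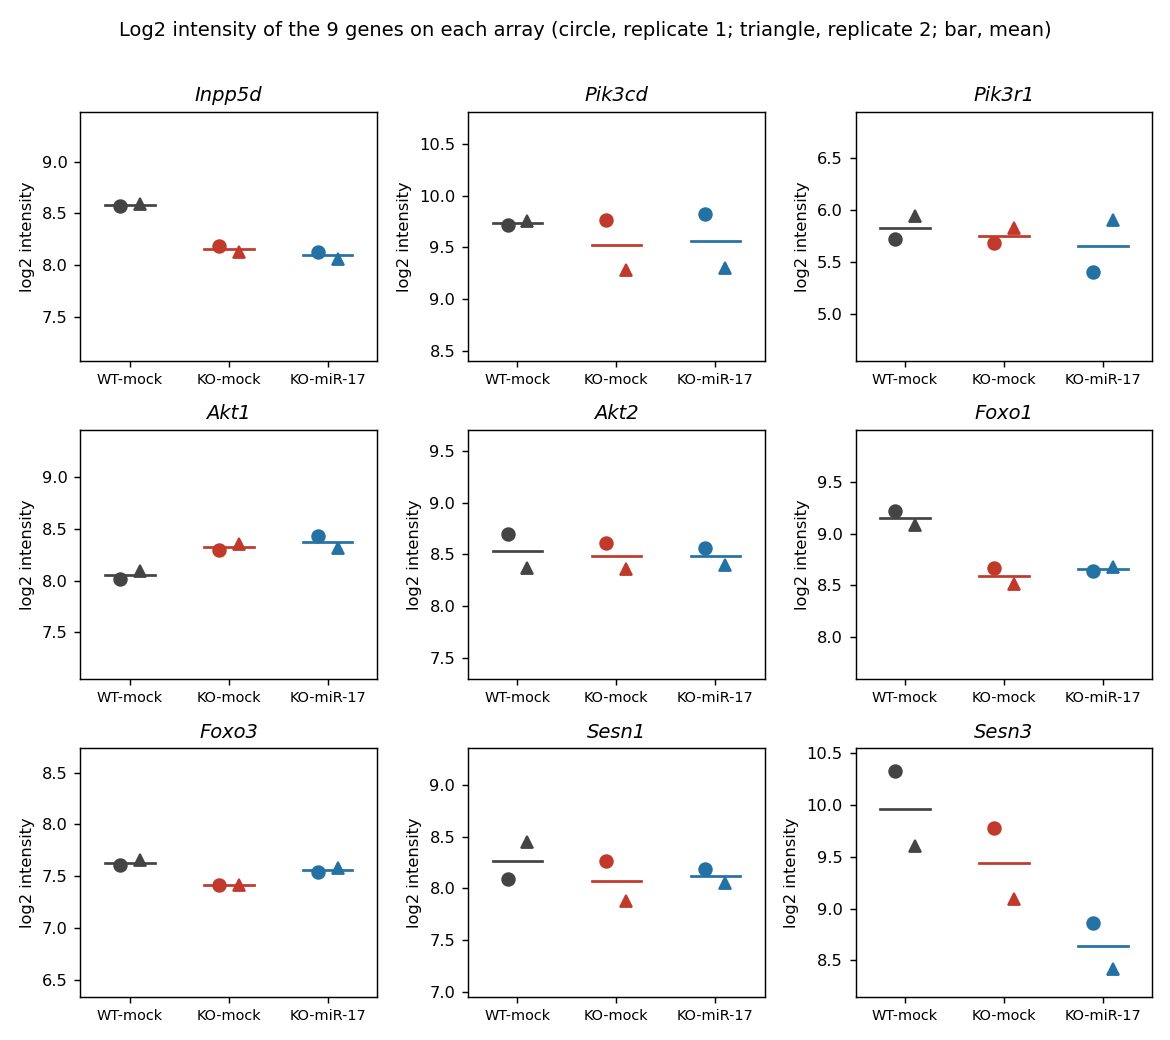
Log2 intensity (vertical axis, the same span in every panel) of the 9 genes on each of the 6 arrays, by group. Circles are replicate 1, triangles replicate 2 and bars group means. Inpp5d and Foxo1 sit lower on all 4 KO arrays than on the WT-mock arrays, Akt1 sits higher, and Sesn3 is lowest on the KO-miR-17 arrays.

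Inpp5d, which encodes SHIP1, was lower in both KO groups. It read 8.57 and 8.59 on the WT-mock arrays, 8.19 and 8.12 on the KO-mock arrays, and 8.13 and 8.06 on the KO-miR-17 arrays. Every KO array was below both WT-mock arrays, and the KO groups overlapped each other. The difference was -0.43 ± 0.10 in KO-mock against WT-mock (limma adjusted p = 0.0451), a ratio of 0.744. With miR-17 it was -0.06 ± 0.10 against KO-mock cells (95% interval -0.29 to 0.17), and -0.49 ± 0.10 against WT-mock cells (limma adjusted p = 0.0305). Its dimmer probe set read -0.57 ± 0.13 in KO-mock against WT-mock and 0.15 ± 0.13 in KO-miR-17 against KO-mock. In a fit of all probe sets, limma adjusted p for KO-mock against WT-mock was 0.0551 for the brighter set and 0.0458 for the dimmer. Leaving out any 1 of the 6 arrays ended the call of KO-mock against WT-mock (-0.39 to -0.46, limma adjusted p up to 0.254), as did a fit with no intensity trend (limma adjusted p = 0.0648) and one of only those 2 groups (limma adjusted p = 0.0717). In KO-miR-17 against WT-mock it ended without any 1 array of those groups (-0.45 to -0.52). The 250 bases before the start of Inpp5d are printed because it is one of the genes that were called. They lie at chr1:87620062-87620311 on the + strand (RefSeq, GRCm38.p6), with CG pairs in capitals.
Inpp5d: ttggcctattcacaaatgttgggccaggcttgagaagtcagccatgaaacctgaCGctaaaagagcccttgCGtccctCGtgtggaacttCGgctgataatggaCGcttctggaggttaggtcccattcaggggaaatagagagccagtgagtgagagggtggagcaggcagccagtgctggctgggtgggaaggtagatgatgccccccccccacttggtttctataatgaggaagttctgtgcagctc
This window holds 5 CG pairs, where the median of all 32851 such windows is 6.

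The PI3K subunit genes did not pass in any comparison. Pik3cd, the catalytic subunit p110-delta found mainly in leukocytes, read 9.71 and 9.75 in WT-mock, 9.76 and 9.28 in KO-mock, and 9.82 and 9.30 in KO-miR-17 cells. In each KO group 1 array was at the WT-mock level and the other below it, so the groups overlapped. The differences were -0.21 ± 0.20 for KO-mock against WT-mock (limma adjusted p = 0.624), 0.04 ± 0.20 for KO-miR-17 against KO-mock and -0.17 ± 0.20 for KO-miR-17 against WT-mock. Its second brightest probe set, of a kind that can match several genes, did not show that split between replicates. It read 7.95 and 8.07 in WT-mock, 7.80 and 7.72 in KO-mock, and 7.84 and 7.73 in KO-miR-17 cells, and differed by -0.25 ± 0.11 in KO-mock against WT-mock (limma adjusted p = 0.275). Pik3r1, the regulatory subunit p85-alpha that holds p110 stable and restrained, was dimmer. It read 5.72 and 5.94 in WT-mock, 5.68 and 5.83 in KO-mock, and 5.41 and 5.90 in KO-miR-17 cells, and the 3 groups overlapped. Its differences were -0.08 ± 0.19 (95% interval -0.52 to 0.37), -0.10 ± 0.19 and -0.18 ± 0.19 in the 3 comparisons, in the same order. Its 2 other sets were dimmer and read -0.15 ± 0.21 and -0.06 ± 0.13 in KO-mock against WT-mock.

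Akt1 was the 1 gene of the 9 that read higher in both KO groups than in WT-mock cells, without passing. It encodes the most widely expressed Akt kinase and read 8.02 and 8.10 in WT-mock, 8.29 and 8.36 in KO-mock, and 8.44 and 8.31 in KO-miR-17 cells. Both WT-mock arrays were below all 4 KO arrays. Over all genes WT-mock was fully apart from KO-mock for 49.9% and from KO-miR-17 for 50.4%. The difference of Akt1 was 0.27 ± 0.10 in KO-mock (95% interval 0.03 to 0.51, limma adjusted p = 0.181) and 0.32 ± 0.10 in KO-miR-17 against WT-mock cells (limma adjusted p = 0.115). Returning miR-17 left a difference of 0.05 ± 0.10 from KO-mock cells. A second probe set for Akt1 read 0.38 ± 0.15 in KO-mock against WT-mock (limma adjusted p = 0.218). Akt2, the isoform best known from insulin signalling, read 8.69 and 8.37 in WT-mock, 8.61 and 8.36 in KO-mock, and 8.57 and 8.40 in KO-miR-17 cells. The spread within WT-mock exceeded every difference between its group means, which were -0.05 ± 0.15, 0.00 ± 0.15 and -0.05 ± 0.15. The 95% interval for KO-mock against WT-mock ran from -0.38 to 0.29. Its dimmer probe set had tighter replicates and read -0.12 ± 0.12 in that comparison (limma adjusted p = 0.668). The brighter set of Akt2 is of a kind that can match several genes. Whether Akt1 and Akt2 differed from each other in response was not tested.

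**Figure D2:**
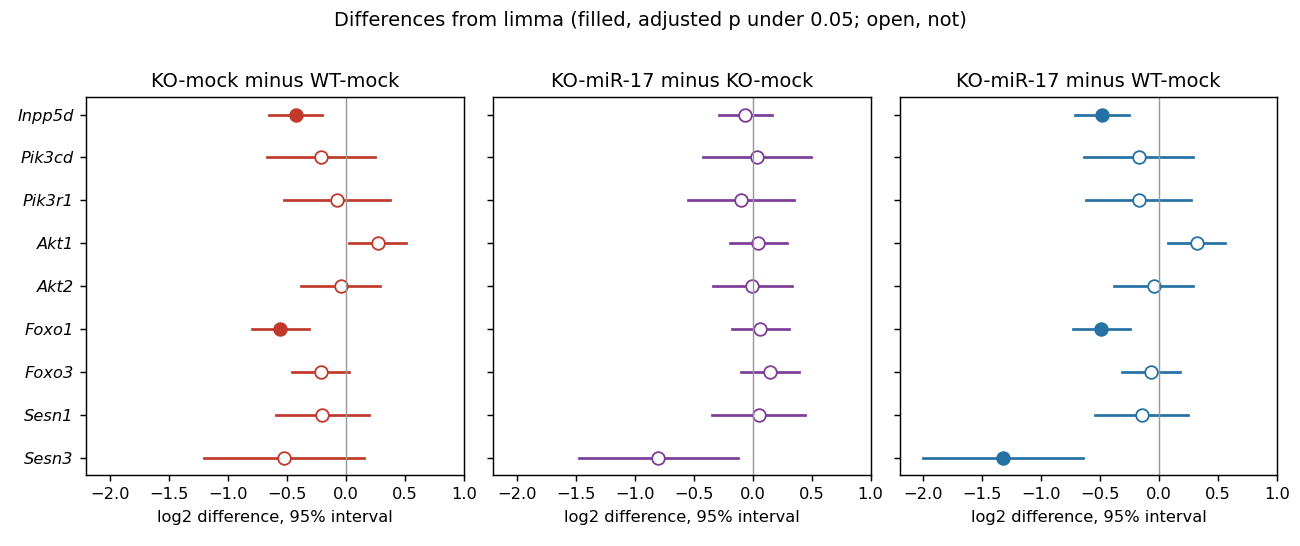
Log2 differences of the 9 genes in the 3 comparisons (horizontal axis) with 95% intervals from limma; filled points passed an adjusted p under 0.05. Foxo1 and Inpp5d are filled against WT-mock in both KO groups, Sesn3 only in KO-miR-17 minus WT-mock, and none is filled in KO-miR-17 minus KO-mock.

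Foxo1, the FOXO factor that lymphocytes depend on most for quiescence and homing, was lower in both KO groups. It read 9.22 and 9.08 on the WT-mock arrays, 8.67 and 8.51 on the KO-mock arrays, and 8.64 and 8.67 on the KO-miR-17 arrays. All 4 KO arrays were below both WT-mock arrays. The difference was -0.56 ± 0.10 in KO-mock against WT-mock (limma adjusted p = 0.0262), a ratio of 0.680. It was -0.49 ± 0.10 in KO-miR-17 against WT-mock (limma adjusted p = 0.0340). Between KO-miR-17 and KO-mock cells it was 0.06 ± 0.10, with a 95% interval of -0.18 to 0.30. The call against WT-mock ended in each of the 4 fits that left out a WT-mock or KO-mock array (-0.48 to -0.63, limma adjusted p up to 0.167). It also ended with the mean of the gene's 4 probe sets (-0.42, limma adjusted p = 0.0728). In KO-miR-17 against WT-mock the call ended without any 1 array of those groups (-0.42 to -0.56), with the mean of the probe sets (-0.34, limma adjusted p = 0.122) and with no intensity trend (limma adjusted p = 0.0592). All 4 probe sets read lower in KO-mock than in WT-mock cells, by -0.56, -0.56, -0.37 and -0.20 from the brightest to the dimmest. The dimmest had a mean under the lower quartile of every array, and the brightest is of a kind that can match several genes.

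Foxo3, the related factor, differed less than Foxo1 in these values and did not pass. It read 7.61 and 7.65 in WT-mock, 7.41 and 7.42 in KO-mock, and 7.54 and 7.58 in KO-miR-17 cells. The KO-mock arrays were below those of both other groups, and the KO-miR-17 arrays lay between. The differences were -0.22 ± 0.11 for KO-mock against WT-mock (limma adjusted p = 0.299), 0.14 ± 0.11 for KO-miR-17 against KO-mock (limma adjusted p = 0.9995) and -0.07 ± 0.11 for KO-miR-17 against WT-mock. A second probe set of nearly the same brightness overlapped between all groups and read -0.10 ± 0.14 in KO-mock against WT-mock. The dimmest, below the lower quartile of every array, read 0.00 ± 0.13. The test of a difference between Foxo1 and Foxo3 was not run. The bases before the start of Foxo1 are printed beside those of Inpp5d, since both genes were lower, with CG pairs again in capitals. They lie at chr3:52268087-52268336 on the + strand.
Foxo1: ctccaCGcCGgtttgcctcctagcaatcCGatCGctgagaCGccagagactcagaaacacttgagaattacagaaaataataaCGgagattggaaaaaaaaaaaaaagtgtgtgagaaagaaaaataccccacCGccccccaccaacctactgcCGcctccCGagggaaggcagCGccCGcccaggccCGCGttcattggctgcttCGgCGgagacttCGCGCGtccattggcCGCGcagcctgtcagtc
The Foxo1 window holds 20 CG pairs, above the upper quartile of all windows (16), whereas that of Inpp5d is near the median.

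**Figure D3:**
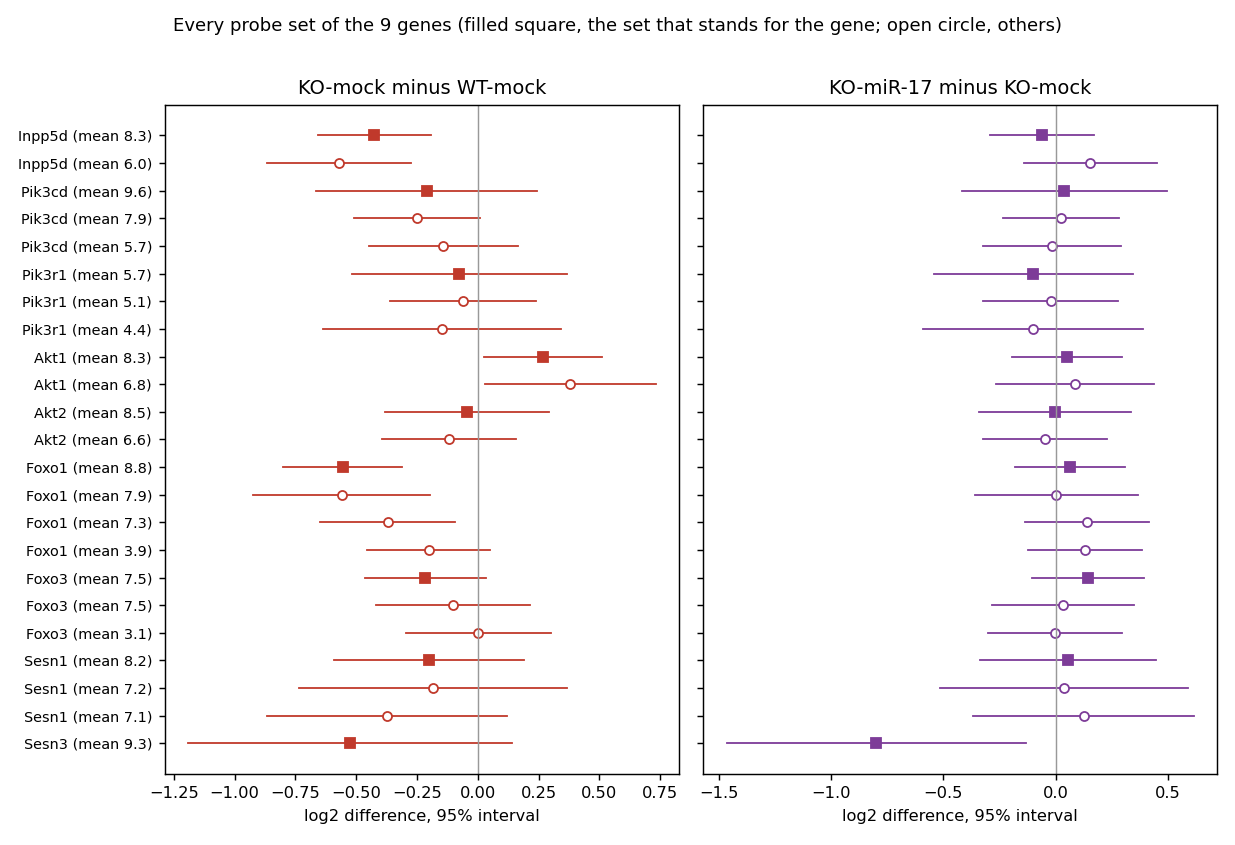
Log2 differences (horizontal axis, with 95% intervals from limma fitted to all probe sets) for each of the 23 probe sets, with the set's mean log2 intensity beside its gene. Filled squares stand for the gene and open circles are its other sets. The 4 sets of Foxo1 and the 2 of Inpp5d lie left of 0 in KO-mock minus WT-mock, and the 2 of Akt1 lie right of it.

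Sesn3 was lower in KO-miR-17 than in WT-mock cells, and Sesn1 did not pass in any comparison; a difference between the sestrin genes was not tested. Sesn3, whose product restrains mTORC1 and which is induced by FOXO factors, read 10.33 and 9.60 in WT-mock, 9.78 and 9.10 in KO-mock, and 8.87 and 8.42 in KO-miR-17 cells. The WT-mock and KO-mock arrays overlapped, and both KO-miR-17 arrays were below the other 4. Within each group replicate 1 read above replicate 2. In KO-mock against WT-mock it differed by -0.53 ± 0.29 and did not pass (limma adjusted p = 0.365). That difference was -0.16 without WT-mock replicate 1 and -0.89 without WT-mock replicate 2. In KO-miR-17 against KO-mock it differed by -0.80 ± 0.29, the largest difference of the 9 there, with an unadjusted limma p of 0.0261 and an adjusted p of 0.9995. With the replicate number as a block, a pairing that no label states, the SE fell to 0.08 in both comparisons. Sesn3 was then called in KO-mock against WT-mock (limma adjusted p = 0.00445), with 2723 genes in all. It was also called in KO-miR-17 against KO-mock (limma adjusted p = 0.0303), with 38 genes in all. Without 1 array and with no block, the difference of KO-miR-17 from KO-mock ran from -0.46 to -1.14. In KO-miR-17 against WT-mock it was lower by -1.32 ± 0.29 (limma adjusted p = 0.0393), a ratio of 0.399. That call ended without WT-mock replicate 1 (-0.96, limma adjusted p = 0.202) and without KO-miR-17 replicate 2 (-1.10, limma adjusted p = 0.209). It held without WT-mock replicate 2 (-1.69) and without KO-miR-17 replicate 1 (-1.55). It also ended with the mean of probe sets for all genes (limma adjusted p = 0.0523) and with no intensity trend (limma adjusted p = 0.0628). Sesn3 had 1 probe set, so no other set could check it. The bases before its start lie at chr9:14276051-14276300 on the + strand, shown because Sesn3 had the largest change of the 9, with its 16 CG pairs in capitals.
Sesn3: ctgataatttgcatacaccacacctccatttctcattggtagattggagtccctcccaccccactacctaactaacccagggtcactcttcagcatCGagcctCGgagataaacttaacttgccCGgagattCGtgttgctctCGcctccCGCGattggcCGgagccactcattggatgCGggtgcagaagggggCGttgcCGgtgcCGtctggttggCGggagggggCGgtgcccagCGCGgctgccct

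Sesn1, a sestrin known as a target of p53, did not pass. It read 8.09 and 8.45 in WT-mock, 8.26 and 7.87 in KO-mock, and 8.19 and 8.05 in KO-miR-17 cells. The spread within WT-mock and within KO-mock exceeded the differences, which were -0.20 ± 0.17 (95% interval -0.59 to 0.19), 0.05 ± 0.17 and -0.15 ± 0.17 in the same order of comparisons. The difference of KO-mock from WT-mock ran from -0.0071 without KO-mock replicate 2 to -0.39 without KO-mock replicate 1. Its 3 probe sets read -0.18 to -0.37 in KO-mock against WT-mock. The brightest and the dimmest of them are of a kind that can match several genes. Sesn2, the remaining sestrin and the one best known from the amino acid response, differed by -0.01 ± 0.14 in KO-mock against WT-mock and -0.21 ± 0.14 in KO-miR-17 against KO-mock, and did not pass either.

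Because sestrin genes are known FOXO targets, the start windows of the 9 genes were searched for the FOXO core motif TGTTTAC on both strands, from 250 bases before to 50 after each start. Of 17 annotated starts 2 held a match, where 3.65% of all 32851 windows did. The longer form TTGTTTAC, which contains the core, was in 1 of the 17 and in 1.23% of all windows. The matches were at the more upstream start of Akt1, 161 bases before it, and at the more upstream start of Sesn1, 23 bases after it. They are shown as 30 bases with the match in capitals, at chr12:112675027-112675056 on the - strand and chr10:41810585-41810614 on the + strand.
Akt1: atctaccctctTGTTTACactcctggtgaa
Sesn1: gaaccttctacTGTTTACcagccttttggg
The windows of Foxo1, Inpp5d and Sesn3 held no match to these letters. A match of this length describes letters and not binding, which these arrays did not measure.

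Genes known as FOXO targets in lymphocytes or other cells were lower more often than higher in KO-mock cells. Of 25 listed genes 22 were measured, and 7 were called lower, 1 higher and 14 did not pass, where 2.79% of all genes were called lower and 3.74% higher. The median of the list was -0.25, beside -0.03 over all genes. This list, like the others, was chosen with earlier results of these data known, so its counts are a description only. Il7r, the IL-7 receptor alpha chain on which naive and memory T cells depend, read 10.94 and 10.74 in WT-mock, 9.49 and 9.47 in KO-mock, and 9.51 and 9.46 in KO-miR-17 cells. It was lower by -1.36 ± 0.09 in KO-mock against WT-mock (limma adjusted p = 0.000915) and differed by 0.00 ± 0.09 between the KO groups. Txnip, which limits glucose uptake, read 9.82 and 9.72 in WT-mock, 8.71 and 8.53 in KO-mock, and 8.71 and 8.49 in KO-miR-17 cells. It was lower by -1.15 ± 0.12 (limma adjusted p = 0.00509), with -0.02 ± 0.12 between the KO groups. Ccng2, a cyclin that slows division, was lower by -1.04 ± 0.13 (limma adjusted p = 0.00922). These 3 genes kept the call whichever WT-mock or KO-mock array was left out.

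The other called members of that list kept it in at most 1 of those 4 fits. They were Cdkn1b, an inhibitor of cyclin-dependent kinases (-0.88 ± 0.14), Bcl2l11, the death factor BIM (-0.92 ± 0.22, but -0.55 without KO-mock replicate 2), Rbl2, a pocket protein of the E2F brake (-0.51 ± 0.11), and Bcl6, a repressor that directs helper T cell fates (-1.46 ± 0.31, but -0.97 without WT-mock replicate 1). Bcl6 was dim, at means of 5.94 in WT-mock and 4.47 in KO-mock cells. Klf6 was the 1 called higher (0.78 ± 0.18). Limma adjusted p lay between 0.0194 and 0.0489 for these 5. With the mean of a gene's probe sets Cdkn1b read -0.51 (limma adjusted p = 0.0638), Bcl2l11 -0.73 (limma adjusted p = 0.0953), Rbl2 -0.51 (limma adjusted p = 0.0513) and Klf6 0.68 (limma adjusted p = 0.0540), none of them called, and Bcl6 read -0.94 and kept its call. With no intensity trend Bcl2l11, Bcl6 and Klf6 were not called (limma adjusted p between 0.0512 and 0.0751), and Bcl2l11 was also not called after repeated quantile normalization or with only the 2 groups. Not every known target read lower, and 6 of the 22 lay above 0 in KO-mock against WT-mock. Klf2, which controls homing receptors and is a textbook FOXO1 target in T cells, differed by 0.00 ± 0.23 (95% interval -0.54 to 0.54). Without passing, Sod2 read higher by 0.35 ± 0.15 (limma adjusted p = 0.233) and S1pr1 by 0.17 ± 0.13 (limma adjusted p = 0.533). Ccr7, the lymph node homing receptor, differed by -0.10 ± 0.11. Between KO-miR-17 and KO-mock cells limma called 0 of the 22, where 0% of all genes were called. The smallest p there was that of Rbl2 (-0.44 ± 0.11, limma adjusted p = 0.837), and its difference from WT-mock cells with miR-17 was -0.95 ± 0.11 (limma adjusted p = 0.00741). As background, Bcl2l11 is also a known target of the cluster's own microRNAs. It nonetheless read lower, not higher, in the cells without the cluster. Any part of such targeting in these differences was not tested, for Bcl2l11 or for other genes of the list.

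**Figure D4:**
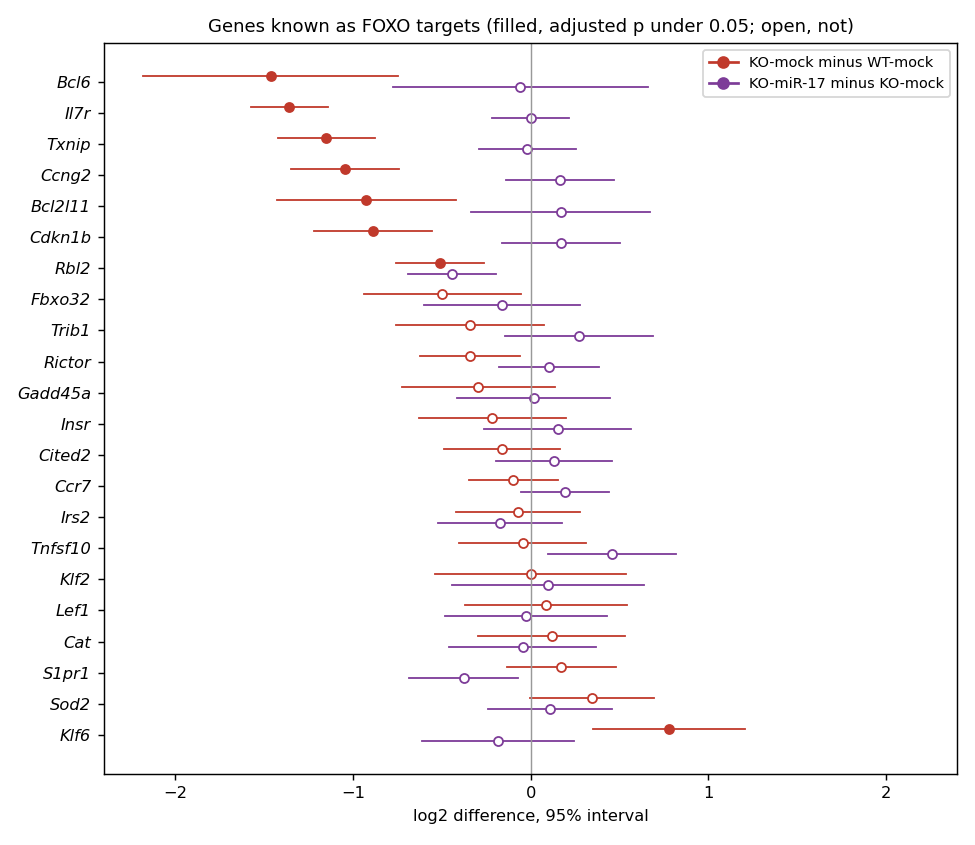
Log2 differences (horizontal axis) with 95% intervals from limma for the 22 measured genes known as FOXO targets, in KO-mock minus WT-mock and KO-miR-17 minus KO-mock. Filled points passed an adjusted p under 0.05: 7 genes lie left of 0 and Klf6 right of it in the first comparison. None is filled in the second, where 0% of all genes were called. The list was chosen with earlier results of these data known.

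Of 34 other listed genes of the PI3K and Akt pathway 24 were measured, and 1 was called lower in KO-mock against WT-mock, 0 higher and 23 did not pass. Over all genes 2.79% were called lower and 3.74% higher. The median of the list was -0.11, beside -0.03 over all genes. The gene called was Dok2, an adaptor that damps T cell receptor signals. It read 9.67 and 9.93 in WT-mock, 9.32 and 9.34 in KO-mock, and 9.18 and 9.13 in KO-miR-17 cells. Its arrays did not overlap between any of the groups. Over all genes 49.9% were fully apart in KO-mock against WT-mock, 28.9% between the KO groups and 50.4% in KO-miR-17 against WT-mock. The share apart in all 3 was not counted. The differences of Dok2 were -0.47 ± 0.11 in KO-mock against WT-mock (limma adjusted p = 0.0412), -0.18 ± 0.11 in KO-miR-17 against KO-mock and -0.65 ± 0.11 in KO-miR-17 against WT-mock (limma adjusted p = 0.0174). The call of KO-mock against WT-mock ended whichever array of those groups was left out (-0.34 to -0.60). It also ended with the mean of probe sets, with no intensity trend and with only those 2 groups (limma adjusted p between 0.0505 and 0.0778). The largest difference in the list was that of Sgk1, a kinase related to Akt and itself activated downstream of PI3K, which did not pass. Sgk1 read 6.33 and 6.21 in WT-mock, 5.75 and 5.26 in KO-mock, and 5.96 and 5.20 in KO-miR-17 cells. It differed by -0.77 ± 0.26 in KO-mock (limma adjusted p = 0.139) and by -0.69 ± 0.26 in KO-miR-17 against WT-mock (limma adjusted p = 0.172). The catalytic subunit gene Pik3ca differed by -0.26 (limma adjusted p = 0.223), Pdpk1, the kinase that activates Akt, by -0.13 (limma adjusted p = 0.527), and Mtor by 0.09 (limma adjusted p = 0.755) in KO-mock against WT-mock. In KO-miR-17 against KO-mock 0 of the 24 were called, where 0% of all genes were, and the median of the list was 0.07.

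Of the p53 targets and stress genes around the sestrins 15 of 16 were measured. In KO-mock against WT-mock 0 of the 15 were called, where 6.54% of all genes were. In KO-miR-17 against WT-mock 2 were called lower, where 2.77% of all genes were. These were Sqstm1, the autophagy receptor p62, which also bridges sestrins to NRF2 control (-0.66 ± 0.13, limma adjusted p = 0.0264), and Ccng1, a p53-induced cyclin (-0.57 ± 0.11, limma adjusted p = 0.0297). The call of Sqstm1 ended without any 1 array of those groups (-0.54 to -0.78). Whether the call of Ccng1 held in such fits was not examined. Of the GATOR, AMPK and Rag genes, which link sestrins to mTORC1, 11 of 18 were measured and 0 were called in any comparison. Over all genes 6.54% were called in KO-mock against WT-mock, 0% between the KO groups and 6.8% in KO-miR-17 against WT-mock. The median of the 11 was 0.09 in KO-mock against WT-mock. The smallest p in that comparison belonged to Sec13 (0.22 ± 0.12, limma adjusted p = 0.327). In KO-miR-17 against KO-mock it belonged to Stk11, the kinase LKB1 that activates AMPK (-0.47 ± 0.10, limma adjusted p = 0.634). Among other listed FOXO and phosphatase genes 6 of 9 were measured and 0 were called in any comparison, beside the same shares over all genes. Ptpn22, which restrains T cell receptor signals, had the smallest p in KO-mock against WT-mock (-0.65 ± 0.22, limma adjusted p = 0.135), and Foxo4 differed by -0.02 ± 0.19.

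The genes whose levels ran most like those of the members across the 6 arrays are given as a description, since 6 arrays in 3 groups leave room for many high correlations among 12393 genes. The rule took the 3 members with the smallest p in KO-mock against WT-mock. Foxo1 was closest to Stk26 (Pearson r = 0.998), Itga2b (r = 0.997) and Ptpn2 (r = 0.995). Inpp5d was closest to Fyb, an adaptor of T cell receptor signalling (r = 0.9998), Itsn2 (r = 0.9992) and the autophagy kinase gene Ulk1 (r = 0.9992). Akt1 was closest to Poll (r = 0.997), Ewsr1 (r = 0.996) and Puf60 (r = 0.988).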

How the data were processed

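Total RNA from the 6 cultures was hybridised to one-colour expression arrays. The deposited values are log2 probe set intensities from the authors' RMA processing, named without a version in the labels per the submitters' processing notes. Base 2 is RMA's usual output and suits the values' range, but no source states it. RMA gives all arrays one distribution and so hides any shift common to most genes.

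Of 22690 probe sets, 20380 had 1 symbol, 691 several and 1555 were unnamed here; 64 were controls. All 6 arrays were fitted with limma 3.58.1 in R 4.3.3 (lmFit, contrasts.fit, eBayes with trend; 3 residual and 4.69 prior degrees of freedom), and p-values were adjusted by Benjamini-Hochberg. The procedure was tested on simulated data, with 200 of 12393 genes changed by a known log2 amount in the KO groups. For KO-mock against WT-mock it recovered 0% of them at a change of 0.5, 68.5% at 1 and 96.5% at 2. The simulated arrays had independent noise and fewer changed genes than the 810 called in the data. These shares therefore do not give the power of the fit of the data, which called Foxo1 at -0.56 and Inpp5d at -0.43. With 2 arrays per group, a gene that did not pass was not shown to be unchanged. The 9 members, the 5 gene lists (from general knowledge) and the alternatives were chosen with earlier results of these data known. Named were the members, list genes called in either of the first 2 comparisons (or the smallest p), and the 3 closest genes for 3 members; other list genes were named after their values were seen. Sequences are RefSeq's (GRCm38.p6); all 9 members had start windows. Precision is limited by having 2 arrays per group.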

Additional observations from a re-analysis of the deposited data

How the results depend on the processing

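Of 7 alternatives other than leaving out 1 array, 6 of which kept all arrays and 1 the 2 groups compared, Foxo1 was called in KO-mock against WT-mock in 6 and Inpp5d in 5, and all 7 kept both below 0. The count of called members fell from 2 to 1 with the mean of probe sets, with no intensity trend and with only the 2 groups compared, and from 3 to 1 in KO-miR-17 against WT-mock with the mean of probe sets or no intensity trend (508 genes called, against 843). Leaving out 1 array gave 0 to 1 called members and 95 to 693 genes (against 2 and 810) in KO-mock against WT-mock, 0 of both in KO-miR-17 against KO-mock, and 0 to 3 members and 74 to 697 genes in KO-miR-17 against WT-mock. Replicates that share a number deviated together across genes (r = 0.429, 0.507 and 0.634 between the groups), a hint from the data and not the design. With the replicate number as a block, 2723, 38 and 2983 genes were called in the 3 comparisons, and 3, 1 and 4 members. Sesn3 was then called in KO-mock against WT-mock (-0.53 ± 0.08, limma adjusted p = 0.00445) and in KO-miR-17 against KO-mock (-0.80 ± 0.08, limma adjusted p = 0.0303), and Akt1 in KO-miR-17 against WT-mock (limma adjusted p = 0.0276). Uncalled values changed sign for Inpp5d in KO-miR-17 against KO-mock with the mean of probe sets (0.0465) and its other set (0.15), there for other sets of Pik3cd (-0.0168) and Foxo3 (-0.0029), and for that Foxo3 set in KO-mock against WT-mock (0.0025). Leaving out 1 array also turned uncalled values. In KO-mock against WT-mock Akt2 ran from -0.209 to 0.118, Pik3r1 from -0.187 to 0.0362 and Pik3cd from -0.452 to 0.0305. In KO-miR-17 against KO-mock Akt2 ran from -0.124 to 0.120, Pik3cd from -0.224 to 0.297, Foxo1 from -0.0149 to 0.142, Sesn1 from -0.140 to 0.246, Pik3r1 from -0.349 to 0.149 and Akt1 from -0.0113 to 0.110. In KO-miR-17 against WT-mock Akt2 ran from -0.211 to 0.116, Sesn1 from -0.329 to 0.0349, Pik3r1 from -0.425 to 0.0738 and Pik3cd from -0.434 to 0.0867. Causes not shown by the construction of an alternative were not tested.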
